A study of Mus musculus with 10 samples.

Results

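The genes that encode the proteins of the cytosolic ribosome were followed in *Sox10*-H2BVenus+ neural crest progenitors (NCPs) of the fetal mouse and in total embryo RNA, measured on Affymetrix mouse Gene ST arrays. Members were chosen by gene symbol: probe sets annotated to 1 symbol alone that reads Rpl or Rps with a number, with or without a final a or x, together with *Rplp0*, *Rplp1*, *Rplp2* and *Rpsa*. Where a gene has several such probe sets, the one brightest on average across the 10 arrays stands for it. This gave 53 genes, 33 of the large (60S) subunit and 20 of the small (40S) subunit, of 19937 genes measured by such probe sets. All 53 were tested, since no filter on low values was applied. *Rps24*, *Rps26*, *Rps27a*, *Rpl11* and *Rpl39* have no probe set annotated to 1 symbol and are not analysed here.

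The NCP group holds 3 arrays of cells sorted for the fluorescent *Sox10*-H2BVenus transgene at E13, from lower urogenital tract by the labels and from dissociated pelvic ganglia by the study's methods, which combine tissue of several fetuses into each sample. *Sox10* marks neural crest-derived progenitors and glia, and the study's text adds that early neurons keep some of the fluorescent protein for a short time. The total embryo group holds 7 arrays, for which the labels give no stage, strain or transgene. Array titles are codes that the labels do not spell out, and are read here as a label series and RNA isolate followed by a hybridization day. By that reading the NCP arrays carry 3 isolates and the total embryo arrays 2, A on 4 arrays and B on 3. P-values against total embryo would then take repeat arrays of the same RNA as replicates, and values with arrays averaged per isolate are given beside the counts. By the same reading all 3 NCP arrays share a hybridization day with 1 total embryo array (total embryo 1, isolate B), and the other total embryo arrays were hybridized on days of their own. Total embryo replicate numbers are tags that pair no samples.

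*Sox10* was higher in the cells sorted by it, and the other neural crest and glial genes were mixed. *Sox10* stood at 7.95, 7.14 and 7.60 on NCP arrays 1, 2 and 3 on the log2 scale, and at 6.56 ± 0.09 (SD, n = 7) in total embryo (difference 1.002, limma adjusted p = 2.78e-04). Autonomic neuron genes were higher in 5 of 8 and not called in the other 3, while of 9 neural crest and glial genes, *Sox10* included, 3 were higher and 4 lower. Of all probe sets tested, 39.6% were higher and 27.5% lower. By the level-adjusted difference defined below, 2 of the 8 autonomic neuron genes were higher and 0 lower. Of the 9 neural crest and glial genes 2 were then higher and 2 lower, beside 11.6% and 7.41% of all probe sets. All 6 liver genes, all 6 striated muscle genes and all 6 smooth muscle and mesenchyme genes were lower in NCPs, as were 2 of 3 erythroid genes, and *Alb*, the serum albumin gene, differed by -6.50. Total embryo is a mixture of such tissues, so each difference below is between sorted cells and that mixture, and fewer cells of a type cannot be told apart from less RNA per cell.

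The NCP arrays cover a narrower range of values. Over all 28192 probe sets tested the SD of log2 values was 1.07, 0.97 and 1.13 on NCP arrays 1, 2 and 3, against 1.78 to 1.91 on the total embryo arrays. A floor was read from 1178 olfactory and vomeronasal receptor genes, whose expression is largely confined to sensory neurons of the nose. The median of the ribosomal protein genes lay 4.80, 3.87 and 5.47 above the receptor median on NCP arrays 1, 2 and 3 and 7.77 to 8.36 above it on total embryo arrays. Single genes above the 95th percentile of the receptor genes numbered 48, 51 and 51 of 53 on the NCP arrays and 53 on every total embryo array. NCP array 2 stands apart as the narrowest, and values without it are given beside the main counts.

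A ribosome is built of ribosomal RNA and one copy of most of these proteins, with the acidic stalk proteins as the exception. The small subunit reads the messenger RNA, and the large subunit joins amino acids and holds the exit tunnel for the new chain. In mammals the messages of many ribosomal proteins begin with an unbroken run of pyrimidines, the 5′ terminal oligopyrimidine tract, through which growth signals set their translation. Loss of 1 copy of several of the genes causes Diamond-Blackfan anemia, and Treacher Collins syndrome, a disorder of facial tissue that neural crest cells form, follows from defects in ribosomal RNA synthesis.

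RefSeq promoters (GRCm38.p6) were found for 42 of the 53 genes. As examples, 9 are shown, from genes that fell furthest, genes that fell less and genes that passed in neither direction. They are not a representative draw and favour long runs. *Rps3* (difference -3.12), with a longest run of 3 bases, is among those left out. How common runs are is given below over all 42 genes. Each stretch holds the 15 bases before and the 15 after the annotated start of the gene, in the direction of transcription, and capitals mark the longest unbroken run of C and T within it.
Rplp0: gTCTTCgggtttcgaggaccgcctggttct
Rps2: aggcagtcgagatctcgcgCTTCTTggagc
Rpl28: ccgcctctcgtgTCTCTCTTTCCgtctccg
Rplp2: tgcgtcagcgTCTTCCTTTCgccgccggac
Rpl7a: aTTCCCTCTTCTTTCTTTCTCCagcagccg
Rpl38: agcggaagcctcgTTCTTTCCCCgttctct
Rps6: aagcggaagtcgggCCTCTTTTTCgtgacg
Rps19: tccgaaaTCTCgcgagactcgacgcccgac
Rpl10: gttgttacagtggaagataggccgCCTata
These lie at chr5:115559452-115559481 (+) for *Rplp0*, chr17:24720048-24720077 (+) for *Rps2*, chr7:4792950-4792979 (+) for *Rpl28*, chr7:141447636-141447665 (+) for *Rplp2*, chr2:26910792-26910821 (+) for *Rpl7a*, chr11:114668565-114668594 (+) for *Rpl38*, chr4:86857353-86857382 (-) for *Rps6*, chr7:24884577-24884606 (+) for *Rps19* and chrX:74270801-74270830 (+) for *Rpl10*.

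A run of at least 8 C or T bases on the coding strand lay within 25 bases either side of the start in 17 of the 42 genes (40.5%) and in 19.4% of the promoters of 26983 other genes. The letters CTCTTT on the coding strand lay in the same 50 bases in 5 (11.9%, against 1.83%). The letters CCGGAAGT, on either strand of the whole 300 bases, lay in 7 (16.7%, against 3.98%). The run is 10 bases long both in *Rps6*, which passed in neither direction between NCPs and total embryo, and in *Rplp2*, which fell. The 17 genes with it and the 25 without overlapped over most of their range in the level-adjusted difference defined below (median 1.24, from -0.42 to 2.58, against 1.58, from -2.12 to 3.07).

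Most ribosomal protein genes read lower on the NCP arrays than in total embryo in the values as deposited and with arrays centred on medians or on receptor genes, and more read higher than lower under cyclic loess normalization. In the values as deposited, 37 of 53 were lower and 3 higher at an adjusted p of 0.05 by limma with Benjamini-Hochberg adjustment over all probe sets, and 13 passed in neither direction. Over all probe sets tested, 27.5% were lower and 39.6% higher. The median difference of the members was -0.997, that of all probe sets 0.23, and the members ranged from -4.70 (*Rplp0*) to 1.88 (*Rpl12*). In 28 genes the highest NCP array read lower than the lowest total embryo array (21.5% of all probe sets), and in 2 the groups were separate in the other direction (31.8%). On single arrays the members' median difference from total embryo was -0.91, -0.99 and -0.48, with 42, 46 and 42 of 53 genes below the total embryo mean. The count was spread over both subunits, with 23 of 33 large subunit genes lower (median -0.997) and 14 of 20 small subunit genes lower (median -0.85).

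The direction of these counts turned with scaling as follows. Cyclic loess normalization left 4 members lower and 20 higher (16% and 16.9% of all probe sets) with a median of 0.78, and a further quantile normalization left 12 lower and 11 higher (20% and 22.6%). Arrays centred on the receptor genes gave 52 lower and 0 higher, also at an unadjusted p under 0.05 (77.8% and 4.77% of all probe sets at the adjusted threshold by limma). With arrays averaged per RNA isolate (3 NCP against 2 total embryo values), 11 members were lower, all among the 37, and 1 higher (14.8% and 20.4%). Against the 3 total embryo arrays of the same label series 21 were lower and 1 higher (19.5% and 26.8%), and without NCP array 2 33 were lower (26.3%).

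**Figure D1:**
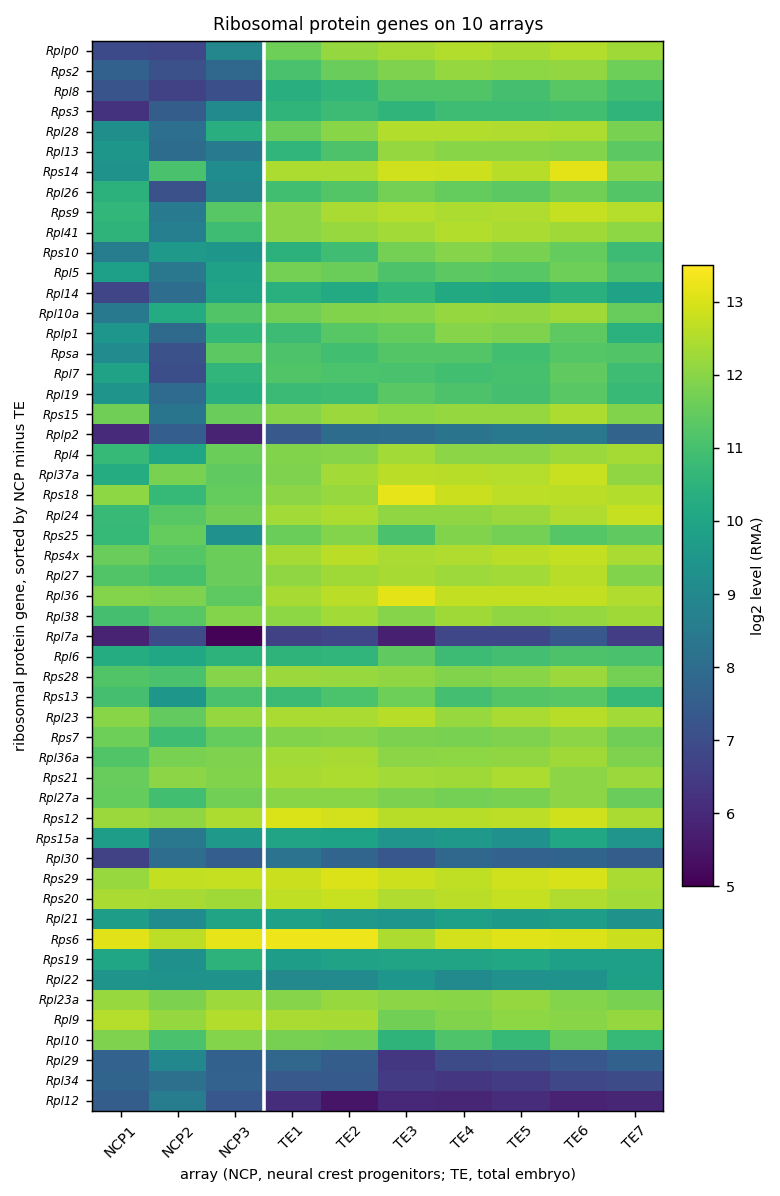
Log2 RMA level of each of the 53 genes (rows, sorted by NCP minus total embryo, lowest at the top) on the 3 NCP and 7 total embryo (TE) arrays (columns), with the colour scale giving the RMA value. The upper rows darken from total embryo to NCP arrays and the rows near the bottom hold their colour, with the dim probe sets of *Rpl29*, *Rpl34* and *Rpl12* in the last 3 rows.

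How far a gene fell depended on its level for all genes. Split into 10 groups by level in total embryo, the non-member genes differed by a median of 1.86 in the lowest group and -2.26 in the highest, which also holds 47 of the 53 members. Each gene was therefore compared with non-member genes within 0.5 log2 units of its own total embryo mean, or with the nearest 200 where fewer lay there. The median change of those genes was subtracted on each array, which gives the level-adjusted difference. Fewer than 200 genes lay in the window of 41 of the 53 members. The matched genes of these 41 were dimmer in total embryo, by 0.87 log2 units at the median.

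Against their matched genes, which were dimmer for most members, most ribosomal protein genes stood high in NCPs. The level-adjusted difference was above 0 in 44 of 53 genes, with a median of 1.46 and an interquartile range of 0.56 to 2.04. By limma on the adjusted values, 32 genes were higher, 3 lower and 18 neither, where 11.6% of all probe sets were higher and 7.41% lower. Bright genes were called more often than that. Above a level of 11 in total embryo, a limit set after values were seen, 35.5% of 141 other genes were higher and 34.0% lower. Of the 39 members there, 59.0% were higher and 5.13% lower. The median was 1.29, 2.06 and 1.19 on NCP arrays 1, 2 and 3, on which 42, 44 and 42 of the 53 genes exceeded their matched genes. Small subunit genes had a median of 1.74 (12 of 20 higher, 1 lower) and large subunit genes one of 1.33 (20 of 33 higher, 2 lower), a difference between subunits that was not tested. A further quantile normalization left 30 genes higher and 3 lower, beside 17.7% and 13.9% of all probe sets. Cyclic loess left 31 higher and 3 lower, beside 17.9% and 13.7%. With arrays centred on the receptor genes 31 were higher and 3 lower, beside 11.6% and 7.42%. Centring leaves the level-adjusted differences in place by construction, so that setting is no test of them.

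Fewer genes passed with arrays of the same title code merged. With arrays averaged per isolate, 4 members were higher, *Rpl10*, *Rps19*, *Rpl21* and *Rpl22* (0.465% of all probe sets), and 0 were lower by limma (0.0355%), while 30 were higher and 3 lower at an unadjusted p under 0.05 (6.71% and 3.69% of all probe sets), and 44 lay above 0 with a median of 1.46. Against the total embryo arrays of the same label series 18 were higher (1.87% of all probe sets) and 0 lower by limma (0.461%), with 33 higher and 3 lower at an unadjusted p under 0.05 (10% and 6.54% of all probe sets). Against the lone array of the same hybridization day, a comparison given as a value without a test, the median was 1.43. Without NCP array 2, 34 were higher and 4 lower with a median of 1.17 (15.2% and 10.9% of all probe sets). Pearson's r of the level-adjusted differences over the 53 genes was 0.66 for NCP arrays 1 and 2, 0.75 for 1 and 3 and 0.57 for 2 and 3, where all share the total embryo means and the matched genes and the part this sharing has in r was not tested.

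**Figure D2:**
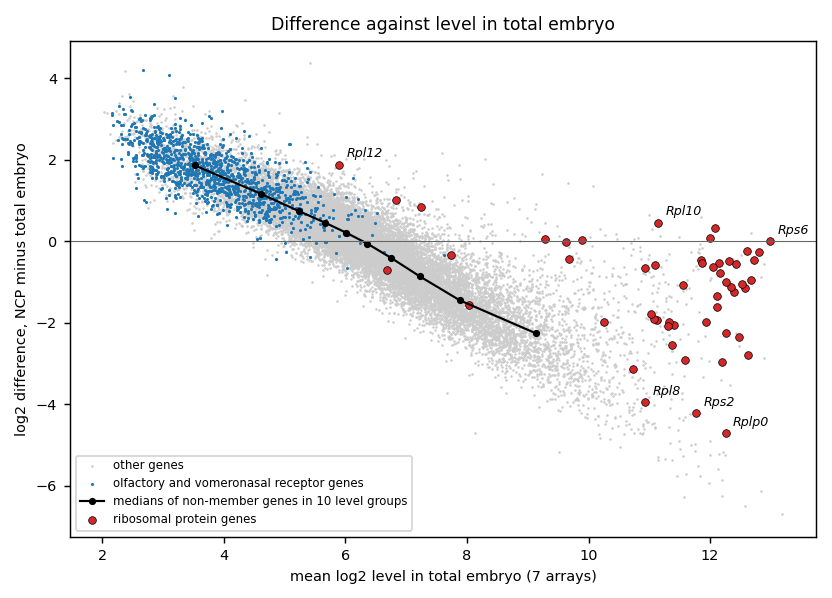
Difference between NCPs and total embryo (vertical axis, log2) for each gene, plotted against its log2 mean over the total embryo arrays (horizontal axis), with ribosomal protein genes in red, receptor genes in blue, other genes in grey and the medians of 10 level groups of non-members as a black line. The line descends from 1.86 to -2.26, and 44 of the 53 red points lie above the level of their matched genes, with *Rplp0*, *Rps2* and *Rpl8* below it.

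Genes of both subunits passed in neither direction while standing well above their matched genes. *Rps6*, the small subunit protein that S6 kinase phosphorylates in response to growth signals, stood at 13.13, 12.65 and 13.18 on the NCP arrays and at 12.46, 13.06 and 13.29 (lowest, median and highest) in total embryo. The groups overlapped, and *Rps6*, with its 10-base pyrimidine run, had the highest total embryo mean of all 53 genes. Its difference was 0.00 (95% interval -0.45 to 0.45, adjusted p = 0.993), and the level-adjusted difference 2.58 (SE 0.26, adjusted p = 3.62e-05). These values are of 1 probe set, and of the 7 of *Rps6* 2 were lower, 2 higher and 3 neither (-2.12 to 1.35).

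*Rpl10*, a late-joining large subunit protein that lies near the peptidyl transferase center, had the largest level-adjusted difference of the members. It read 11.87, 11.05 and 11.91 on the NCP arrays and 10.54, 11.17 and 11.76 (lowest, median, highest) in total embryo, so that NCP arrays 1 and 3 lay above all total embryo arrays and array 2 among them. The difference of 0.46 did not pass (interval -0.21 to 1.13, adjusted p = 0.202), and the level-adjusted difference was 3.07 (SE 0.29, adjusted p = 2.55e-05). The direction turned with the probe set: the other 4 of *Rpl10* were lower in NCPs (-1.24, -1.82, -2.43 and -4.08), and level-adjusted they gave 1.55, -1.54, 0.15 and -1.51. *Rps19*, the gene most often mutated in Diamond-Blackfan anemia, stood at 10.02, 9.26 and 10.49 on the NCP arrays and at 9.74, 9.90 and 10.08 in total embryo. Its NCP arrays lay on both sides of the total embryo range, and its level-adjusted difference was 2.76 (SE 0.16, adjusted p = 7.34e-07).

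*Rpl22*, a large subunit protein that also binds RNA outside the ribosome, varied least of the 53 between NCP arrays (9.39, 9.34 and 9.33), all inside the total embryo range of 9.02 to 9.82. *Rpl21* stood at 9.76, 9.13 and 9.96 against 9.33, 9.63 and 9.86. *Rpl9* stood at 12.54, 12.16 and 12.53 against 11.70, 12.06 and 12.40. Their level-adjusted differences were 2.44, 2.55 and 2.91, all past the threshold. Of the 8 probe sets of *Rpl9* 5 were lower and 0 higher (-3.63 to 0.33). Of the 9 of *Rpl21* 0 were lower and 5 higher. *Rpl23a*, which lies at the exit tunnel, differed by 0.08 (adjusted p = 0.655) and *Rps20* by -0.23 (adjusted p = 0.205), with level-adjusted differences of 2.66 and 2.35. *Rps29* differed by -0.27 (adjusted p = 0.214), and its level-adjusted difference was 2.31. Of the 10 probe sets of *Rpl23a* 5 were lower and 1 higher, and of the 4 of *Rps29* 2 were lower and 0 higher. Only 13 and 20 non-member genes lay in the windows of *Rps29* and *Rps20*. Their matched genes were dimmer, at a median of 11.25 against 12.81 and 12.60. With isolates averaged, the level-adjusted differences of *Rps6*, *Rpl9*, *Rpl23a*, *Rps20* and *Rps29* did not pass (adjusted p = 0.0755, 0.0695, 0.0755, 0.18 and 0.203).

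The genes that fell furthest were *Rplp0*, *Rps2* and *Rpl8*. *Rplp0* encodes the base of the stalk of acidic proteins that recruits translation factors to the large subunit, and is a common reference gene for expression. It stood at 6.92, 6.81 and 8.95 on the NCP arrays and at 11.64, 12.36 and 12.53 (lowest, median, highest) in total embryo. The groups did not overlap, and array 3 was the highest of the NCP arrays. The difference was -4.70 (SE 0.38, adjusted p = 4.98e-07), and *Rplp0* stood 2.12 below its matched genes (SE 0.28, adjusted p = 3.22e-04). On NCP array 2 it read below the 95th percentile of the receptor genes (6.88) and on array 1 just above it (6.78), so the difference reaches down to signals at that floor. Its other probe set annotated to 1 symbol differed by -4.00.

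*Rps2*, a small subunit protein near the entry path of the messenger RNA, stood at 7.65, 7.12 and 7.88 on the NCP arrays and at 11.05, 11.85 and 12.14 in total embryo. The groups lay far apart, with a difference of -4.22 (SE 0.25, adjusted p = 5.21e-08) and a level-adjusted difference of -1.63 (SE 0.27, adjusted p = 1.33e-03). Its other probe sets differ from this one: they gave -0.25 and 0.42, and the mean of all probe sets of the gene turned the level-adjusted difference to 1.40. *Rpl8*, a large subunit protein close to the peptidyl transferase center, has 1 such probe set, which read 7.22, 6.63 and 7.09 against 10.32, 10.999 and 11.28 (difference -3.95, SE 0.23, adjusted p = 4.09e-08). On NCP array 2 it, too, read below the 95th percentile of the receptor genes. Its level-adjusted difference was -1.38 (SE 0.26, adjusted p = 2.99e-03). Under cyclic loess *Rplp0*, *Rps2* and *Rpl8* were lower as well, by 2.74, 2.24 and 1.92 log2 units. Their level-adjusted differences did not pass with isolates averaged (adjusted p = 0.156, 0.219 and 0.274).

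**Figure D3:**
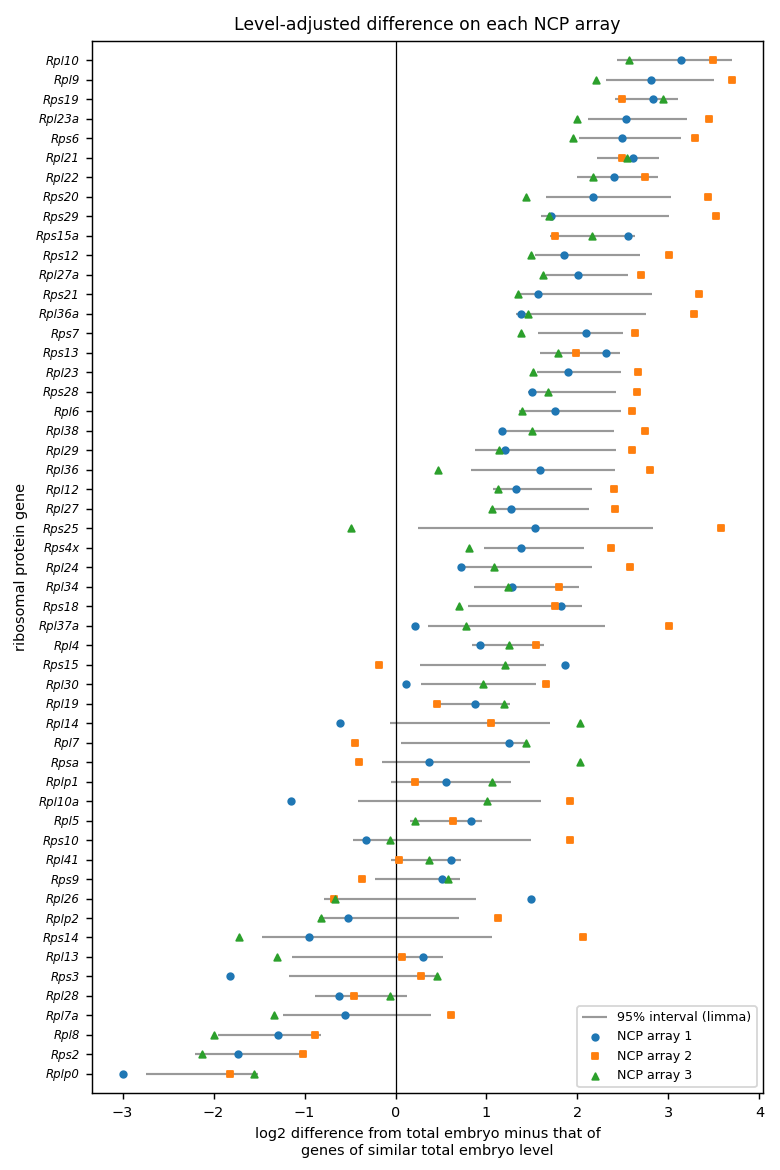
Level-adjusted log2 difference (horizontal axis) of each of the 53 genes (rows, sorted) on NCP arrays 1 (circles), 2 (squares) and 3 (triangles), with grey bars for the 95% interval of the limma fit. The centres of the upper 44 rows, from *Rpl10* (3.07) downward, lie right of 0, and *Rpl8*, *Rps2* and *Rplp0* lie left of it on all 3 arrays.

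The other stalk proteins, *Rplp1* and *Rplp2*, had smaller differences than *Rplp0*. *Rplp1* stood at 9.48, 7.94 and 10.62 against 10.44, 11.39 and 11.96, and NCP array 3 lay within the total embryo range (difference -1.98, SE 0.47, adjusted p = 2.36e-03). *Rplp2*, read by a probe set of low signal, stood at 6.04, 7.53 and 5.83 against 7.38, 8.03 and 8.45 (difference -1.57, SE 0.34, adjusted p = 1.27e-03). Neither passed against genes of like level (0.61, adjusted p = 0.183, and -0.07, adjusted p = 0.915). In neither case did isolates averaged give a call.

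*Rpl5*, which carries 5S ribosomal RNA into the large subunit and, outside it, binds the p53 regulator Mdm2, stood at 9.79, 8.41 and 9.85 against 11.13, 11.34 and 11.71. The groups did not overlap (difference -2.05, SE 0.28, adjusted p = 3.69e-05). Its level-adjusted difference of 0.56 passed narrowly (adjusted p = 0.0493), was -0.09 against the array of the same day and did not pass with isolates averaged. *Rpl28* (-2.96) and *Rpl13* (-2.91), large subunit proteins, were lower with adjusted p of 2.30e-05 and 1.77e-05, and stood at -0.38 and -0.31 against matched genes, where neither passed.

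Among small subunit proteins, *Rps3*, at the entry of the messenger RNA channel and also linked to DNA repair, stood at 6.24, 7.50 and 9.08 against 10.55, 10.84 and 10.92. The NCP arrays lay far apart, all below total embryo (difference -3.12, SE 0.42, adjusted p = 2.98e-05, level-adjusted difference -0.35, adjusted p = 0.550). *Rps14*, haploinsufficient in the 5q- syndrome, stood at 9.34, 11.06 and 9.14 against 12.01, 12.58 and 13.14 (difference -2.78, SE 0.36, adjusted p = 2.39e-05). NCP array 2 is the high one here. The level-adjusted difference of -0.20 (adjusted p = 0.843) became -1.33 and passed without that array. *Rpsa*, also known as the laminin receptor, spread most between NCP arrays, at 9.09, 7.12 and 11.35 against 10.92, 11.18 and 11.24 (difference -1.94, SE 0.60, adjusted p = 0.0119). NCP array 3 lay above all total embryo arrays and array 2 far below them, and without array 2 the difference was -0.91 and did not pass, nor did it with isolates averaged (adjusted p = 0.194).

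*Rpl38*, a large subunit protein whose loss in mice alters the axial skeleton through translation of Hox messages, stood at 10.997, 11.28 and 11.91 against 11.95, 12.16 and 12.31. It was lower by a small margin (difference -0.77, SE 0.19, adjusted p = 3.64e-03) and higher than its matched genes (1.81, SE 0.27, adjusted p = 7.24e-04), and neither passed with isolates averaged (adjusted p = 0.134 and 0.238). *Rps4x*, the X-linked small subunit protein, showed the same (11.57, 11.26 and 11.58 against 12.35, 12.50 and 12.73, difference -1.06, adjusted p = 6.34e-05, level-adjusted 1.52, adjusted p = 1.43e-03), the level-adjusted call being lost with isolates averaged (adjusted p = 0.301). *Rpl36* and *Rps12*, among the 5 brightest members in total embryo, were lower by 0.96 and 0.46 (adjusted p = 7.13e-04 and 0.0323) and stood 1.62 and 2.11 above matched genes. Neither was lower with isolates averaged (adjusted p = 0.0612 and 0.246) or higher than matched genes (0.429 and 0.155), and without NCP array 2 *Rps12* was not lower (-0.38, adjusted p = 0.0932). The signs of the differences of *Rpl38*, *Rps4x*, *Rpl36*, *Rps12* and *Rpsa* turned positive under cyclic loess. *Rpl41*, which encodes the shortest protein of the ribosome, stood at 10.52, 8.67 and 10.86 against 12.02, 12.28 and 12.51, and its difference of -2.24 (adjusted p = 1.28e-04) lay 0.34 above that of its matched genes (adjusted p = 0.202).

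The genes that read higher in NCPs are read by probe sets of low signal. *Rpl12* stood at 7.50, 8.56 and 7.29 against 5.90 ± 0.21 (SD, n = 7), a level at the 98.0th percentile of the receptor genes in total embryo. All NCP arrays lay above total embryo (difference 1.88, SE 0.25, adjusted p = 2.53e-05). *Rpl34* (1.01, adjusted p = 3.14e-03) and *Rpl29* (0.85, adjusted p = 0.0391) had total embryo means of 6.84 and 7.24. With isolates averaged, *Rpl12* was the 1 higher member. *Rpl7a*, a large subunit protein read by another dim probe set, stood at 5.86, 6.95 and 5.08 against 5.76, 6.81 and 7.29 and passed in neither direction (-0.72, adjusted p = 0.0991). By this probe set its NCP mean lay at the 65.8th percentile of the receptor genes. The direction turned with the probe set. Another of *Rpl7a* was higher in NCPs (2.03, limma adjusted p = 1.73e-05, level-adjusted 1.31), and the last gave -0.45 (adjusted p = 0.257).

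The genes brightest in total embryo were set beside each other as a description. Above a level of 11 in total embryo, a limit chosen after values were seen, lay 39 members and 141 other genes. The limit selects on the group in which these genes are high, so their counts of lower genes are no support for a fall, and members with low NCP signals such as *Rplp0* remain among them. Of the members 32 were lower (82.1%) with a median of -1.12, and of the others 120 (85.1%) with a median of -2.44. The level-adjusted medians were 1.46 and 0.16. In the members, 23 were higher and 2 lower than matched genes (59.0% and 5.13%), and among the others 50 and 48 (35.5% and 34.0%). Of the 141 other genes, 11 are markers of liver, muscle or mesenchyme, tissues of the embryo that the sort leaves out, and their part in the result was not tested. For the 41 members with fewer than 200 genes in the window, the matched genes lay 0.87 log2 units lower in total embryo level at the median. For the other 12 this was 0.08. The most abundant members are thus set against dimmer genes, in *Rps6* against genes at a median of 11.25 where it stood at 12.99.

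The NCP arrays differed more among themselves than the total embryo arrays did. The median SD of the 53 genes was 0.68 over the NCP arrays and 0.24 over the total embryo arrays. Within isolates A and B it was 0.16 and 0.25. The median difference of isolate A minus B was 0.09, with 36 of 53 genes higher in A. Single genes ranged from -0.71 (*Rpl29*) to 1.01 (*Rps10*), and opposite signs cancel in that median.

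Probe sets of the same gene often disagreed. The 53 genes have 184 probe sets annotated to 1 symbol, of which 113 were lower, 21 higher and 50 neither. Of all probe sets tested, 27.5% were lower and 39.6% higher. Level-adjusted, 84 of the 184 were higher and 11 lower, beside 11.6% and 7.41% of all probe sets. In the 37 genes with several, the differences spanned a median of 1.98 log2 units, and in 8 genes (*Rpl10a*, *Rpl13*, *Rpl19*, *Rpl23a*, *Rpl27a*, *Rpl5*, *Rps13* and *Rps6*) probe sets were called in both directions. The widest span was 6.30, in *Rpl13*, whose 9 probe sets ran from -3.46 to 2.84. The 7 of *Rps6* ran from -2.12 to 1.35, and the 5 of *Rpl10* from -4.08 to 0.46, with the highest value from the probe set used here. *Rpl9* was 2.91 above matched genes by the probe set used and 1.03 below them by the one highest in total embryo. Ribosomal protein genes have many processed pseudogenes of near-identical sequence, so which copy a probe set reads is uncertain, and probe set positions were not analysed here. A further 203 probe sets carry a ribosomal protein symbol among several, of which 94 were lower and 34 higher, beside the same 27.5% and 39.6%.

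**Figure D4:**
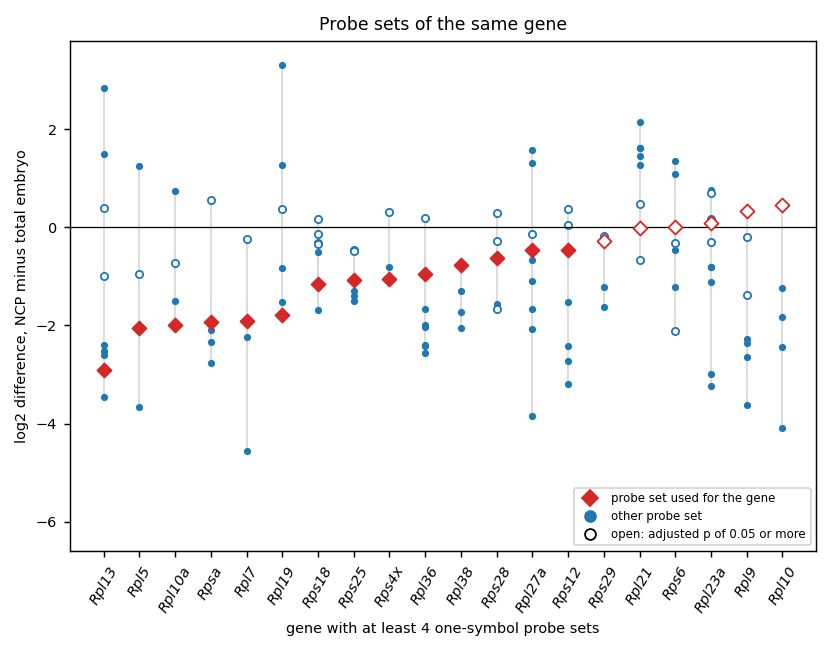
Difference between NCPs and total embryo (vertical axis, log2) of every probe set annotated to 1 symbol, for the genes with at least 4 such probe sets (horizontal axis), with red diamonds for the probe set used, blue circles for the others and open symbols for an adjusted p of 0.05 or more. The probe sets of *Rpl13* span 6.30 log2 units, from -3.46 to 2.84, while those of *Rps25* span 1.04.

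Other genes of the translation machinery were mostly lower too, with medians near 0 against genes of like level. For the counts below, 27.5% of all probe sets were lower and 39.6% higher, and level-adjusted 11.6% were higher and 7.41% lower. Of 36 initiation factor genes 31 were lower and 5 passed in neither direction (median -1.72), and against matched genes 3 were higher and 4 lower (median 0.01). *Eif4a1*, the helicase that unwinds leader sequences, differed by -3.93 and *Eif3h*, a subunit of the initiation factor that binds the small subunit, by -3.82, whereas *Eif4e*, the cap-binding protein, differed by 0.43 (adjusted p = 0.370). Of 13 elongation and termination genes 9 were lower and 4 neither (median -1.74, level-adjusted -0.21, 1 higher and 3 lower). *Eef2*, the translocase, differed by -3.70 and *Etf1*, the release factor, by -3.26. *Tpt1*, whose message also carries a pyrimidine tract, differed by 0.21 (adjusted p = 0.396) and stood 2.79 above matched genes (adjusted p = 4.2e-05).

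Genes that make ribosomes gave a like picture. Of 44 ribosome biogenesis and RNA polymerase I genes 33 were lower and 11 neither (median -1.06), and against matched genes 4 were higher and 3 lower (median -0.05). *Nhp2*, a protein of the pseudouridylation complexes, differed by -2.92 and *Nop58*, of the methylation complexes, by -2.78. Of 77 mitochondrial ribosomal protein genes 50 were lower and 1 higher (median -0.92, level-adjusted 0.09, with 11 higher and 3 lower). *Mrps12* was the 1 that rose (1.55, adjusted p = 8.15e-05), and *Mrpl42* (-3.05) and *Mrps14* (-3.05) fell furthest.

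Factors that receive the new chain were mixed. Of 10 nascent chain and secretory targeting genes 7 were lower and 3 neither (median -1.11), and against matched genes 5 were higher and 1 lower (median 0.89). *Srp9*, of the signal recognition particle, stood 2.82 above matched genes (adjusted p = 1.5e-05), while *Srp72* of the same particle fell by 2.69. Of 8 ribosomal protein genes outside the symbol rule, paralogs and fusions among them, 2 were lower and 2 higher. Against matched genes 3 were higher and 5 neither (median 0.68). *Rps3a1*, the brightest of the 8 in total embryo (11.49), differed by 0.09 (limma adjusted p = 0.767). It stood 2.71 above matched genes (limma adjusted p = 4.80e-04). *Fau*, which encodes Rps30 fused to a ubiquitin-like protein, differed by -2.57, and *Rpl39l*, a paralog known from testis, rose by 1.17 (adjusted p = 8.98e-04).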

How the data were processed

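The deposited values are on the log2 scale. The authors computed them with RMA (robust Multi-Array Average) in version 1.1 of Affymetrix Expression Console, per the submitters' processing notes. Which arrays were normalized together is not given in the sources used here. The labels name a one-cycle labelling kit and the study's methods a different amplification kit. After removal of 6568 controls from 34760 probe sets, 28192 were tested, of which 21640 carry 1 gene symbol in the platform annotation. Values were used as deposited, and the number of arrays limits their precision.

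Groups were compared with limma 3.58.1 in R 4.3.3 (lmFit and eBayes, group only), with p-values adjusted by Benjamini-Hochberg over every probe set tested and a threshold of 0.05. For level adjustment, each array's median difference from the total embryo mean, taken over non-member genes within 0.5 log2 units of the same mean (the nearest 200 where fewer), was subtracted before the same fit. Both fits were also run on simulated arrays, drawn as independent samples with the total embryo spread in both groups. The NCP arrays spread more than that and the total embryo arrays repeat isolates, so this run does not gauge error rates here. Figures were drawn with matplotlib 3.10.9 in Python 3.11.15.

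The members, lists and tests were chosen with earlier results of these data known. Members given with values are the 8 lowest and 8 highest by level-adjusted difference, the 5 brightest in total embryo and a fixed list of genes of known role, and from each other list at most 2 genes that rose most and 2 that fell most. *Rpl12*, *Rpl34* and *Rpl29*, the 3 that were higher, were named after their values were seen. *Rps3a1*, outside the members, was also named after its values were seen. Alternatives changed the control arrays, averaged or blocked RNA isolates and label series, rescaled the values, and changed the test, filter, threshold, probe set and level matching. Each array was also left out in turn. Promoter sequences are those of RefSeq (GRCm38.p6).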

Additional observations from a re-analysis of the deposited data

How the results depend on the processing

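The median level-adjusted difference stayed between 0.95 and 1.91 under all settings tried. Centring the arrays leaves it in place by construction and is no test of it. Leaving out each array in turn gave 33 to 37 members lower and a median of -1.05 to -0.84, and level-adjusted 30 to 34 higher, 3 to 4 lower and a median of 1.17 to 1.79. Against the total embryo arrays of the same label series, 21 members were lower, and level-adjusted 18 were higher and 0 lower. Against the lone array of the same hybridization day the members' median was -0.81 and the level-adjusted median 1.43, given as values without a test, which say little of stability. With arrays averaged per isolate 11 members were lower by limma, and level-adjusted 4 were higher and 0 lower. A further quantile normalization gave 12 lower, a median of -0.41 and a level-adjusted median of 0.95. Cyclic loess gave 4 lower and a median of 0.78, and arrays centred on receptor genes a median of -2.69. The median of all probe sets, 0.23 as deposited, was 0.08, -0.0089 and -1.46 under these scalings in turn, and -0.33 with dim probe sets left out. Under cyclic loess the differences of *Rps12*, *Rpl36*, *Rpsa*, *Rps4x* and *Rpl38* became 1.24, 0.78, 0.043, 0.72 and 1.06, and that of *Rps12* was 0.12 after quantile normalization. The level-adjusted difference of *Rpl5* was -0.0908 against the same-day array, that of *Rps2* 1.40 with the mean of its probe sets, and that of *Rpl9* -1.03 with the probe set highest in total embryo. These causes were not tested. The highest level-adjusted median, 1.91, came from a lowess trend. No paired analysis was possible because the replicate numbers were given in accession order and pair no samples. By the reading of the title codes used here, which the labels do not spell out, group and hybridization day cannot be told apart beyond the 1 shared day.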
